A study of Mus musculus with 14 samples.

Results

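The genes described here are 30 hepatocyte genes, which encode 26 plasma proteins, 1 urea cycle enzyme and 3 transcription factors, followed through spatial transcriptomic sections of mouse tissue. They were chosen by symbol, as genes known for their use in hepatocytes, and all 30 were found among the 32589 features of the sections from purchased mice and the 19465 features of the sections from a C1qa cross. The label was checked against levels, and all 30 had a higher fitted level in fetal liver than in spleen. The difference passed the test in all but Cebpa, against 25.6% of all genes called higher. As the set was listed as hepatocyte genes, this checks the label only. The study placed 14 formalin-fixed, paraffin-embedded sections on Visium slides, in which barcoded spots capture gene-specific probes and count them as unique molecular identifiers (UMIs). Fetal liver was sectioned from purchased wild-type mice at E13.5 and E14.5, with 1 section per stage. It was also sectioned at E14.5 from wild-type and C1qa knockout embryos of crosses between C1qa heterozygous mice, with 2 sections per genotype. Knockout 2 and wild type 2 were littermates from the mother numbered 2, and knockout 4 and wild type 4 were littermates from the mother numbered 4, so these pairs are called litter 2 and litter 4. The labels name no treatment of these livers. The other sections were 4 spleens of the same cross (2 wild type and 2 C1qa knockout, aged 3 months by the labels), a purchased adult wild-type spleen, and purchased wild-type leg bone marrow at P8, at 89 weeks and at 6 months from bone treated with EDTA. C1qa encodes a chain of complement C1q and was deleted in the whole animal. Levels are given as CPM, the UMIs of a gene per 1000000 UMIs of the summed spots. C1qa had 95.9 CPM in wild type 2 and 25.8 CPM in wild type 4, against 0.0866 CPM in knockout 2 and 0.0595 CPM in knockout 4.

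During development the liver is both the main site of blood formation and a growing gland. Its hepatoblasts come under the control of HNF4A, C/EBP alpha and FOXA factors, and as they mature they raise the output of albumin, clotting factors, apolipoproteins and protease inhibitors while alpha-fetoprotein later gives way. Enzymes of the urea cycle rise late in this programme. The erythroid cells, macrophages and other blood cells that share the organ do not make these secreted proteins.

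Factors of the C/EBP, FOXA, HNF1 and HNF4 families act on hepatocyte promoters, and the promoters of the set were read for letters that such factors are known to bind. RefSeq promoter windows (GRCm38.p6), 250 bases before to 50 bases after the start of a gene, were at hand for 26 of the 30 genes (not Kng1, Plg, Cps1 and Ttr), with 29 windows in all. Each motif was read in 1 spelling and on both strands, so a window without a match may hold another spelling. The C/EBP motif TTGCNNAA stood in 12 of the 29 windows (41.4%), against 10.8% of all 32851 windows. The FOXA motif TGTTTNC stood in 18 of the 29 (62.1%), against 20.5% of all windows. In no window did matches of the C/EBP and FOXA letters overlap each other. The HNF4 motif CAAAGTNCA was found in 1 window, that of Serpind1 (3.45%, against 1.41% of all), and the HNF1 motif (GTTAAT, any base, then ATT) in 1 window, that of Afp (3.45%, against 0.399% of all). In 8 genes the same window held both C/EBP and FOXA letters, and 6 genes had neither. The letters were chosen with several spellings already tried, and a match is a description of the sequence and not a site of binding. A set of 4 windows is printed 5′ to 3′ with C/EBP and FOXA matches in capitals: the neighbours Alb and Afp (chr5:90460620-90460919 and chr5:90490464-90490763, both plus strand), whose balance differed between sections, Ahsg (chr16:22891765-22892064, plus strand), which differed widely between litters, and Rbp4 (chr19:38124762-38125061, minus strand), which differed least between them.
Alb: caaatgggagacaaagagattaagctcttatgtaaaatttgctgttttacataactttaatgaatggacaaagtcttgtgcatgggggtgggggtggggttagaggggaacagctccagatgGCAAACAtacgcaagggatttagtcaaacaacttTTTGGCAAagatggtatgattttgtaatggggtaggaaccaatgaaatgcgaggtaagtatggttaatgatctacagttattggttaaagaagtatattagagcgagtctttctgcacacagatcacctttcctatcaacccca
Afp: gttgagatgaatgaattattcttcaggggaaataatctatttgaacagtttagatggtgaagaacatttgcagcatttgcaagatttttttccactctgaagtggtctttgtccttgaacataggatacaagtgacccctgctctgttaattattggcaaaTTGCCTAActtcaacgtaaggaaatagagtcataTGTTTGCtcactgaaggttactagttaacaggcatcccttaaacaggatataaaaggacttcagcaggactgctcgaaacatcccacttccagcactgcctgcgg
Ahsg: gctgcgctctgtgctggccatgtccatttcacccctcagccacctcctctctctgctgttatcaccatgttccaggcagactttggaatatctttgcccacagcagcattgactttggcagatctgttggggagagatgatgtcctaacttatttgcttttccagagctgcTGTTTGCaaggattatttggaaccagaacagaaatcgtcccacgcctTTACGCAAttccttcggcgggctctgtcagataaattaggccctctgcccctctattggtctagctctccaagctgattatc
Rbp4: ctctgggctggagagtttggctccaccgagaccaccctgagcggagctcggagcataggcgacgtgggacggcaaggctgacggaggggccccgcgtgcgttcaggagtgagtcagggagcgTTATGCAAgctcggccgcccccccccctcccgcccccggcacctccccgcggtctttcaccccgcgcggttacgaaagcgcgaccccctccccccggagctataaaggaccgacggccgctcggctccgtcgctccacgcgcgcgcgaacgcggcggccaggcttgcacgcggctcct
The windows of Alb, Afp and Ahsg each held 1 C/EBP and 1 FOXA match, and the printed Rbp4 window held 1 C/EBP match. The other Rbp4 window (chr19:38125272-38125571, minus strand) held 1 FOXA and 0 C/EBP matches.

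Between 491 and 2320 spots per fetal liver section had at least 1000 detected genes and were kept, with 11549622 to 56182915 UMIs per section. The 30 genes together took 2.43% of UMIs at E13.5 and 3.73% at E14.5 in the purchased livers, 11.8% in wild type 2, 5.93% in knockout 2, 0.863% in wild type 4 and 1.40% in knockout 4. The sections differed in how much liver lay on the slide. Spots with at least 2% of UMIs from a list of erythroid genes, which holds none of the 30, were taken as liver and made up 94.3 to 100% of spots in 4 sections, but 61.5% in knockout 4 and 26.8% in wild type 4. Spots of the cross sections with under 0.5% erythroid UMIs lay beside the liver, and there the 30 genes took only 0.0287 to 0.0479%. In liver spots alone the 30 genes took 2.43% at E13.5, 3.73% at E14.5, 12.2% in wild type 2, 6.08% in knockout 2, 2.00% in wild type 4 and 1.91% in knockout 4. The levels below are therefore CPM in liver spots unless all kept spots are named. In summed spots, fewer hepatocytes and less RNA per hepatocyte cannot be told apart. The purchased and the cross sections were processed separately with different feature tables, so their levels are set side by side without a test.

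**Figure D1:**
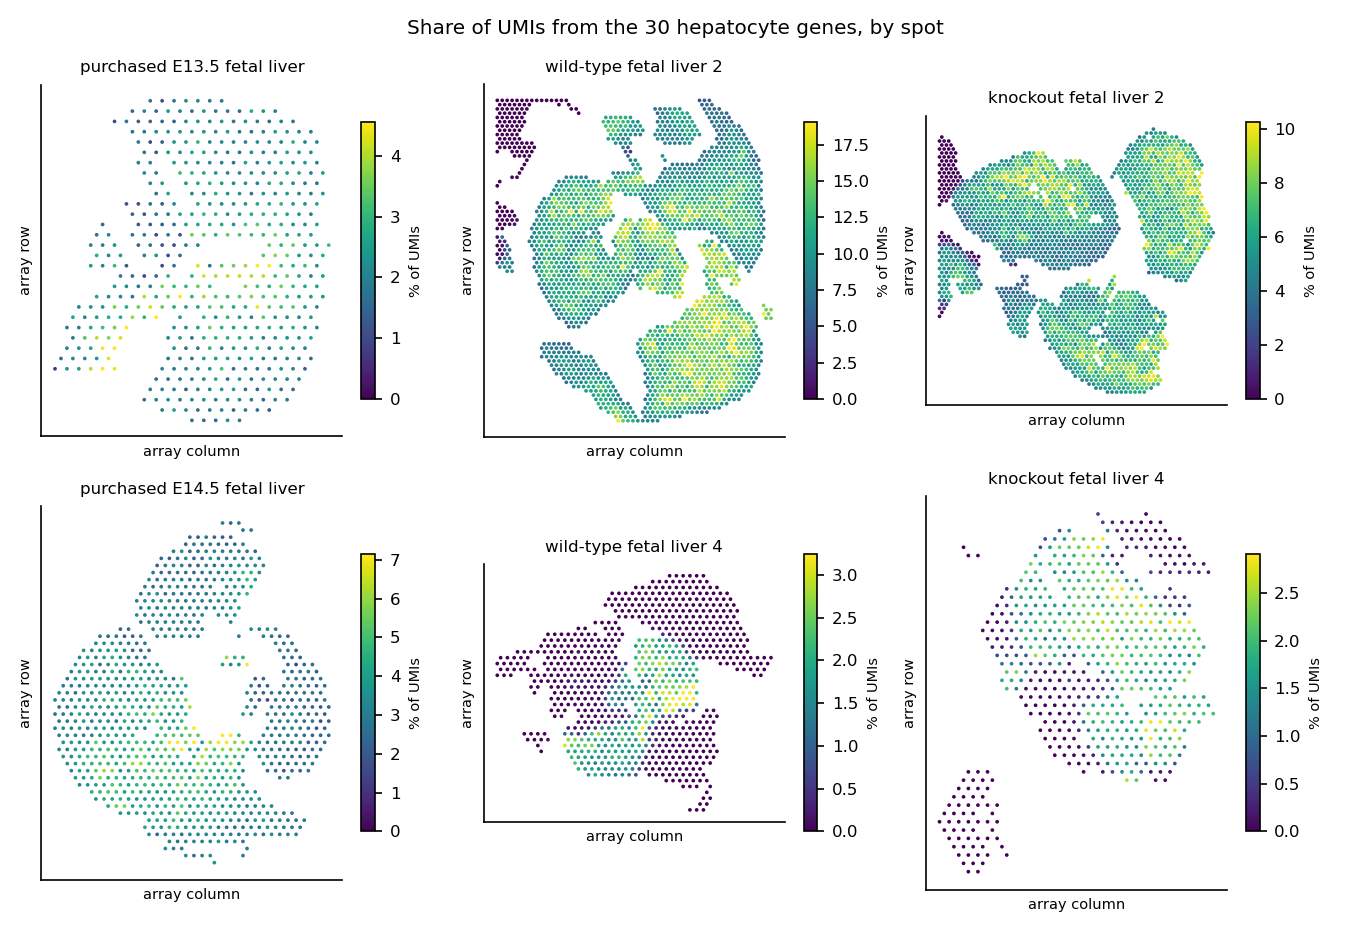
Share of UMIs from the 30 hepatocyte genes in each kept spot of the 6 fetal liver sections, drawn at array row and column, with a colour scale of its own for each section in percent of UMIs. The liver of wild type 4 and knockout 4 (2.00% and 1.91% in liver spots) is bordered by tissue in which the genes took 0.0287% and 0.0333%.

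The carriers circulate fatty acids, hormones, vitamins and minerals. Alb, the main carrier of adult plasma, counted 9662 CPM at E13.5 and 15594 CPM at E14.5 in the purchased livers, 50741 and 20756 CPM in wild type and knockout of litter 2, and 6252 and 5240 CPM in wild type and knockout of litter 4. Afp, its fetal counterpart, counted 4103, 3877, 11766, 9747, 4622 and 4396 CPM in the same order. Afp therefore spanned a narrower range than Alb, and the ratio of both differed between sections. For every 100 Alb UMIs there were 42.5 Afp UMIs at E13.5 and 24.9 at E14.5, 23.2 and 47.0 in wild type and knockout 2, and 73.9 and 83.9 in wild type and knockout 4. The ratio compares sections, and not the amounts of the 2 transcripts, since each gene has its own probes.

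Ttr, which carries thyroxine and the retinol-binding protein, counted 1398, 2464, 13136, 5994, 1144 and 1150 CPM in that order of sections. Ahsg, the mineral carrier fetuin-A, counted 577, 1709, 8937, 3271, 216 and 200.4 CPM. Ahsg was the carrier with the widest range. Rbp4, the retinol carrier itself, counted 808, 915, 1690, 1369, 1284 and 1340 CPM, and was the carrier with the narrowest range. Litter 2 lay above both purchased livers in all 5 carriers, whereas litter 4 lay above them in Rbp4 and Afp and below them in Alb, Ttr and Ahsg.

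Among the clotting proteins, Fga, Fgb and Fgg encode the 3 chains of fibrinogen and lie next to each other on chromosome 3. Fga counted 324 and 693 CPM at E13.5 and E14.5, 2647 and 1263 CPM in wild type and knockout 2, and 230.4 and 207 CPM in wild type and knockout 4. The other 2 chains followed the same order of purchased and litter 2 sections, with Fgb between 317 CPM in knockout 4 and 2337 CPM in wild type 2, and Fgg between 105 CPM in wild type 4 and 1296 CPM in wild type 2. F2 (prothrombin), Plg (plasminogen, which dissolves clots), Kng1 (kininogen) and Vtn (vitronectin) likewise peaked in wild type 2, at 867, 1857, 574 and 317 CPM. All 7 were lowest in a litter 4 section.

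Of the apolipoproteins, Apoa1, the main protein of high-density lipoprotein, counted 1859 and 3889 CPM at E13.5 and E14.5, 8305 and 5173 CPM in litter 2, and 1581 and 1858 CPM in litter 4 (wild type before knockout). Apoh, which binds phospholipids, counted 100.4, 251, 1614, 613, 42.7 and 32.5 CPM. The level of Apoh in litter 4 was thus under that of the E13.5 liver, while Apom, the carrier of sphingosine-1-phosphate, kept within 251 to 536 CPM in all 6 sections. Apoa2 ranged from 924 to 3701 CPM and Apob from 68.9 to 287 CPM.

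The protease inhibitors hold both wide and narrow ranges. Itih4 counted 25.6 and 78.5 CPM at E13.5 and E14.5, 411 and 217 CPM in litter 2, and 9.88 and 14.9 CPM in litter 4. Itih2, a gene of the same family, counted 367, 414, 1402, 985, 593 and 557 CPM. Itih3 and Itih1, the neighbours of Itih4 on chromosome 14, ranged from 83.5 to 1253 CPM and from 11.2 to 134.7 CPM. Serpinc1 (antithrombin) ranged from 261 to 2593 CPM, Serpind1 (heparin cofactor II) from 59.2 to 266 CPM and Ambp, the precursor of bikunin, from 536 to 2270 CPM. Serpina1a and Serpina1b are near-identical copies of the alpha-1-antitrypsin gene whose probes may not separate them, and they ranged from 80.6 to 689 CPM and from 274 to 1769 CPM.

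Cps1, the first enzyme of the urea cycle, had the widest range of the 30. It counted 2.08 CPM at E13.5 and 10.0 CPM at E14.5, 416 CPM in wild type 2, 50.5 CPM in knockout 2, 1.80 CPM in wild type 4 and 4.68 CPM in knockout 4. Its values in litter 4 did not exceed the 3.72 and 4.89 CPM measured beside the liver in the same sections. The transcription factors spanned narrower ranges, as Rbp4, Apom and Afp did. Hnf4a, a nuclear receptor that sustains hepatocyte genes, counted 55.5, 54.3, 128, 83.2, 61.05 and 63.3 CPM in the usual order. Cebpa counted 42.8, 33.4, 113, 79.8, 49.8 and 50.1 CPM, and Foxa3, a FOXA factor of the endoderm, counted 24.3, 18.5, 41.9, 24.7, 15.5 and 21.9 CPM. Wild type 2 was the highest section for each of the 30 genes.

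**Figure D2:**
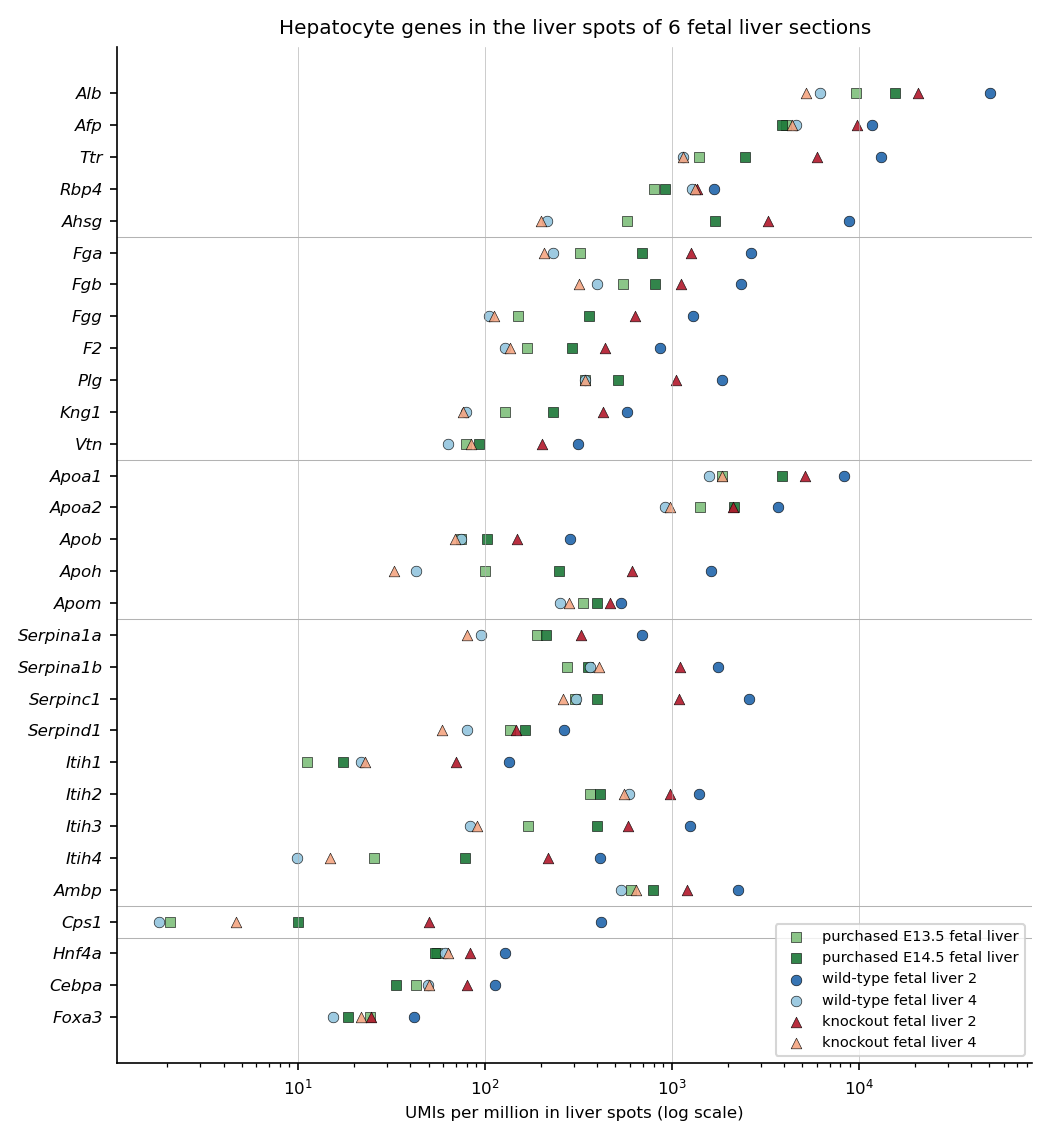
CPM in the liver spots (horizontal, log scale) of each of the 30 genes (vertical, grouped as carriers, clotting proteins, apolipoproteins, protease inhibitors, enzyme and transcription factors), with 1 point per fetal liver section. Wild type 2 is the rightmost point of each row, and Cps1 has the widest row, from 1.80 to 416 CPM.

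The 2 purchased livers address how the genes differed between E13.5 and E14.5. Each stage had 1 section, so the difference has no replicate check, and the intervals given (95%, exact binomial) cover counting error only. On the log2 scale of CPM over all kept spots, 26 of the 30 genes were higher at E14.5 and 4 were lower, with a median difference of 0.59 against −0.08 over the 14036 genes compared. A difference of at least 2-fold upward was seen in 8 of the 30 genes, against 2.37% of all genes, and none of the 30 was 2-fold lower, against 4.94% of all genes. For comparison, the wild-type sections of litters 2 and 4, both labelled E14.5, differed in liver spots by at least 2-fold in 29 of the 30 genes, each lower in litter 4, where 5.71% of all genes were 2-fold lower and 25.6% were 2-fold higher.

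Cps1 differed most, by 2.28 (interval 1.94 to 2.64), from 79 to 564 UMIs in the whole sections. Itih4 was higher by 1.62 (1.52 to 1.72), Ahsg by 1.57 (1.55 to 1.59) and Apoh by 1.32 (1.27 to 1.38). Fgg was higher by 1.26, Itih3 by 1.24, Fga by 1.10 and Apoa1 by 1.07, which completes the 8. The members of a protein complex were not equal in this, since Fgb, the remaining fibrinogen chain, was higher by 0.58 (0.55 to 0.60). Alb was higher by 0.69 (0.69 to 0.70) and Ttr by 0.82 (0.80 to 0.83). Rbp4, which travels bound to the Ttr product, was higher by only 0.18 (0.16 to 0.20).

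The 4 genes with a lower value at E14.5 were Afp (−0.08, interval −0.09 to −0.07) and the 3 transcription factors Foxa3 (−0.39, −0.52 to −0.26), Cebpa (−0.35, −0.45 to −0.26) and Hnf4a (−0.04, −0.12 to 0.04). The interval of Hnf4a holds 0. With a scaling by trimmed mean of M values (TMM), which places most genes at no difference, Afp (0.02) and Hnf4a (0.06) were on the other side of 0, while Foxa3 (−0.29) and Cebpa (−0.25) stayed below. Other genes of the pathway were read as lists that hold none of the 30. Of 28 other plasma protein genes compared, 10 were at least 2-fold higher and 0 were 2-fold lower, with a median of 0.60. F9 (clotting factor IX) went from 1.04 to 3.58 CPM, Cp (ceruloplasmin) from 2.01 to 12.0 CPM, and Serpina6, the cortisol carrier, from 706 to 618 CPM. Of 17 liver metabolic enzymes, 6 were at least 2-fold higher, with a median of 0.68. Of 14 other liver regulators none reached 2-fold in either direction, the median was −0.44, and Gata4 went from 24.97 to 14.47 CPM. Genes of other tissues moved between the sections as well. The median was −0.73 in 6 bile duct genes, of which 3 were at least 2-fold lower. In 8 genes of stellate cells and mesenchyme the median was −0.91, and their summed share of UMIs was 0.0741% at E13.5 and 0.0405% at E14.5. Their part in the stage difference was not tested.

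**Figure D3:**
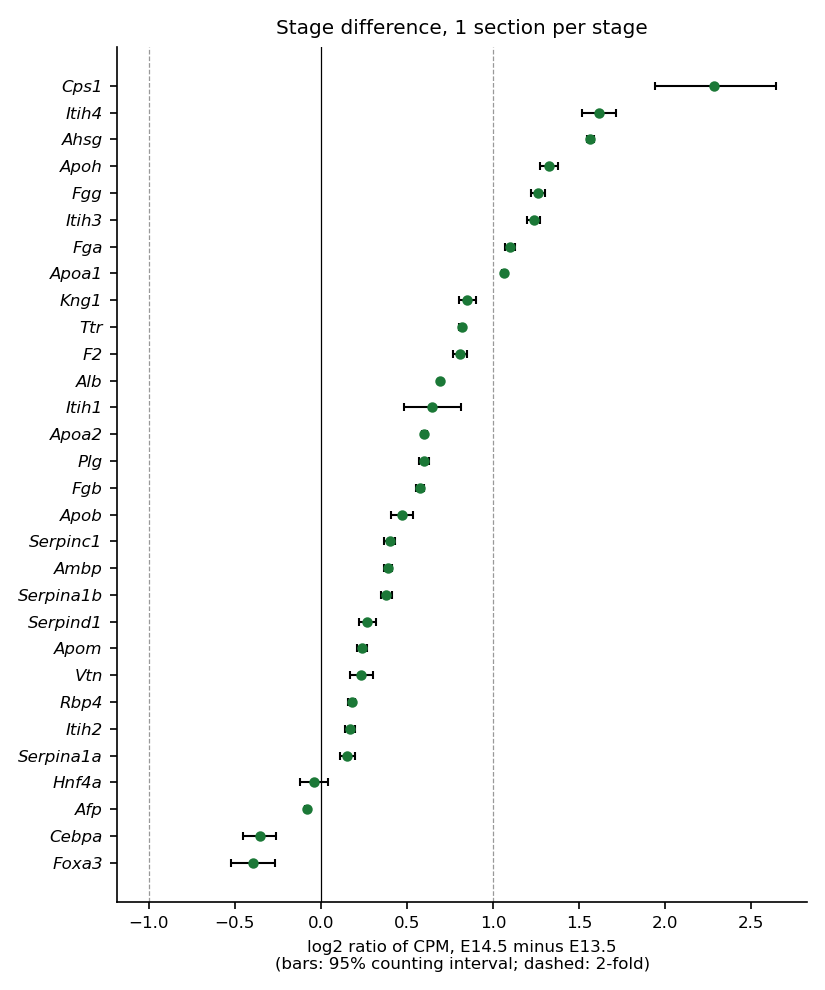
Difference between E14.5 and E13.5 for each of the 30 genes as log2 ratio of CPM over all kept spots of 1 purchased section per stage, with 95% counting intervals and dashed lines at 2-fold. Cps1 (2.28), Itih4 (1.62) and Ahsg (1.57) are at the top, and Hnf4a, Afp, Cebpa and Foxa3 lie below 0.

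The cross asks whether loss of C1qa altered these genes in the E14.5 liver. No gene of the 30 passed the test when the litters were left out of the model. All 30 had a lower fitted level in the knockouts, with a median log2 difference of −0.93 (−0.00 over all 18986 genes tested), but the difference was smaller than the spread between sections of 1 genotype. With edgeR's quasi-likelihood test over all kept spots (2 sections per genotype), 0 of the 30 and 0 of all genes (0.0%) had a Benjamini-Hochberg adjusted p below 0.05, and 0 of the 30 and 138 of all genes had an unadjusted p below it. DESeq2 called 7 genes (0.0369%) and 0 of the 30. Alb differed by −1.35 ± 2.85 (SE, adjusted p = 1.0 by edgeR) and Cps1 by −3.13 ± 2.097 (adjusted p = 1.0 by edgeR). The direction over all kept spots reversed when wild type 2 was left out. Wild type 4 was then the only wild-type section and was set against knockouts of both litters. The knockouts alone gave the spread, and litter and genotype were mixed. Liver spots made up 26.8% of kept spots in wild type 4, 96.8% in knockout 2 and 61.5% in knockout 4. In that fit all 30 genes were higher in the knockouts, with a median of 2.72. Without wild type 4, which likewise leaves 1 wild-type section, the median was −1.79 and Cps1 was at −4.08. Without knockout 2 the median was −3.08 and without knockout 4 it was −0.09.

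The littermates were then compared with each other. In litter 2, all 30 genes were lower in the knockout than in the wild type, with a median of −0.92 on the log2 scale of CPM in liver spots. Of the 30, 11 were at least 2-fold lower, against 3.69% of all genes, and 0 were 2-fold higher, against 3.08%. The knockout held 40.9% of the wild-type level of Alb, 36.6% of Ahsg, 38.0% of Apoh and 12.1% of Cps1, but 82.8% of Afp and 87.1% of Apom. In litter 4, the knockout held 83.8% of the wild-type level of Alb, 92.9% of Ahsg, 76.2% of Apoh and 104% of Rbp4. There, on the CPM scale, 17 of the 30 genes were higher and 13 lower in the knockout, with a median of 0.03. At 2-fold, Cps1 alone was higher (260% of wild type, with 38.3% of all genes higher) and none of the 30 was lower (0.167% of all genes). The direction in litter 4 depended on scaling, since the median of all genes was higher by 0.59 in knockout 4, and with TMM scaling 27 of the 30 were lower (median −0.41). Over all kept spots all 30 genes were higher in knockout 4 than in wild type 4 (median 0.75), the section with the smaller share of liver spots.

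With the litter as a replicate block, edgeR called 157 genes over all kept spots (0.827%), of which 152 were lower in the knockouts. Among the 30 only Cps1 was called (−1.55 ± 0.35 SE, adjusted p = 0.00146), while 27 of the 30 had a negative and 3 a positive difference. In liver spots with the same block, 24 genes (0.133%) and 0 of the 30 were called. An unadjusted p below 0.05 by edgeR was found in 6 of the 30 and in 699 of all 18093 genes. All 30 differences were negative (median −0.71), against a median of 0.05 over all genes. The call of Cps1 was lost there (−1.60 ± 0.445 SE, adjusted p = 0.142 by edgeR), and its level in litter 4 was no higher than beside the liver. For Hnf4a the difference in that fit was −0.57 ± 0.31 (SE, adjusted p = 0.954 by edgeR) and for Afp −0.45 ± 1.09 (SE, adjusted p = 0.959 by edgeR). Each fit rests on 2 embryos per genotype. None of the lists of other plasma proteins (30 genes) and of liver regulators (14 genes) had a call in it, and 2 of 20 liver metabolic enzymes were called lower.

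**Figure D4:**
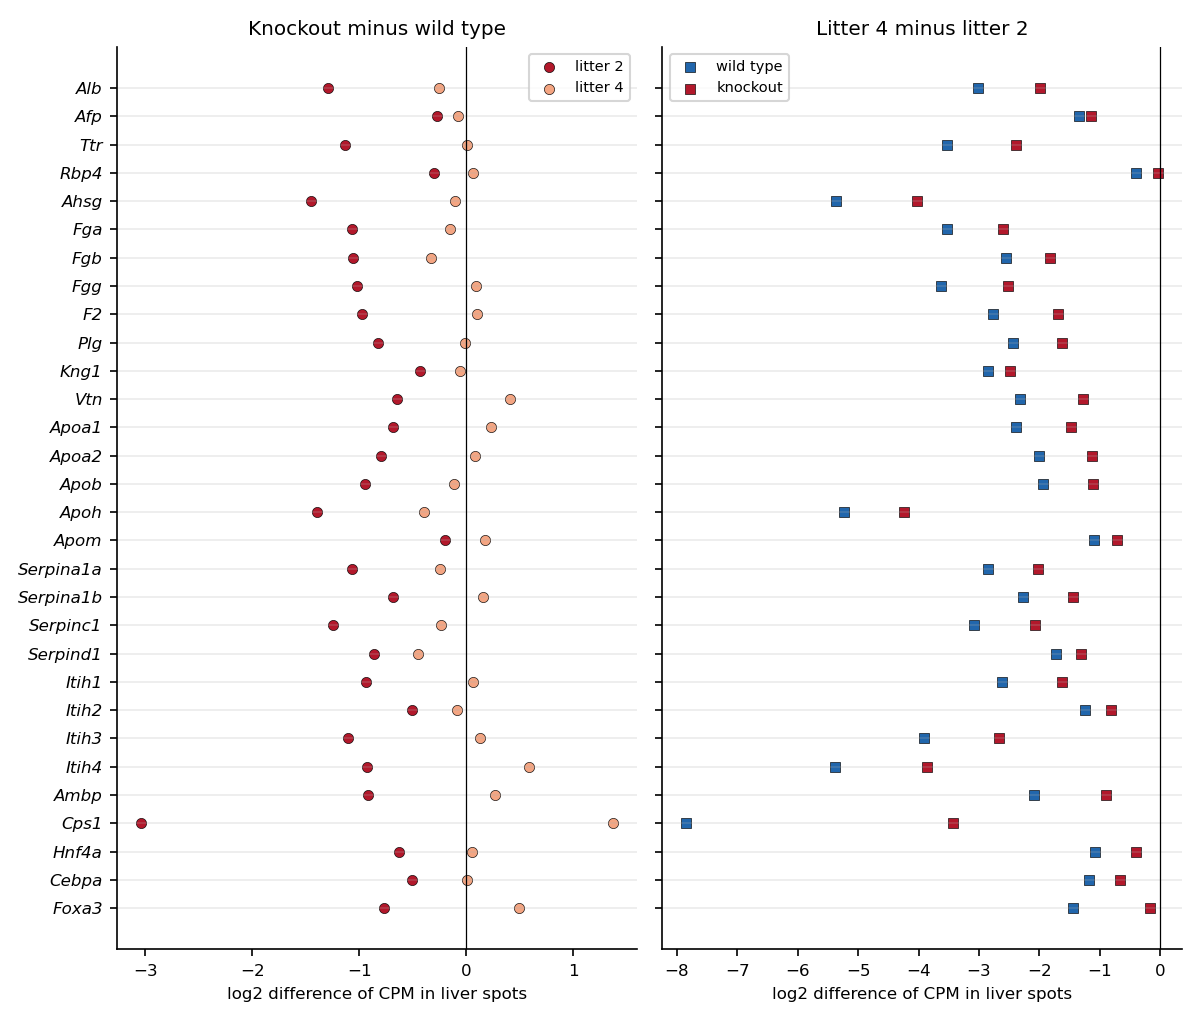
Log2 differences of CPM in liver spots for the 30 genes, with 1 section per point of the pair. Left, knockout minus wild type within litter 2 (all 30 below 0) and within litter 4 (17 above and 13 below 0). Right, litter 4 minus litter 2 within wild type and within knockout, with each point below 0.

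The litters differed more than the genotypes. In liver spots, both sections of litter 4 lay below both sections of litter 2 for each of the 30 genes, against 7.91% of all genes on the CPM scale. With genotype in the model, edgeR called 26 of the 30 genes lower in litter 4 and none higher, against 10.9% of all 18093 genes called lower and 2.45% called higher. The median difference of the 30 was −2.76, against 0.11 over all genes. This comparison was added after the data had been seen, with 2 embryos per litter.

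Cps1 (−6.25 ± 0.47 SE), Apoh (−5.43 ± 0.62), Ahsg (−5.39 ± 1.03) and Itih4 (−5.30 ± 0.44) differed most. Wild type 2 held 41.4 times the Ahsg level of wild type 4, and knockout 2 held 16.3 times that of knockout 4. Itih3 (−3.98), Fgg (−3.75), Fga (−3.75), Ttr (−3.64) and Kng1 (−3.35) followed. The transcription factors were called as well, with smaller differences, by edgeR with adjusted p. Hnf4a differed by −1.42 ± 0.31 (adjusted p = 0.000105), Cebpa by −1.62 ± 0.31 (adjusted p = 3.43e-06) and Foxa3 by −1.50 ± 0.27 (adjusted p = 5.02e-07). The 4 genes not called were Alb (−3.19 ± 1.72 SE, adjusted p = 0.247 by edgeR), Afp (−1.93 ± 1.13, adjusted p = 0.294), Apoa1 (−2.62 ± 0.97, adjusted p = 0.051) and Rbp4 (−0.90 ± 0.63, adjusted p = 0.399). Alb thus had a larger fitted difference than many called genes, and a larger error. DESeq2 called all 30 lower, against 9.55% of all genes. With upper-quartile scaling 27 of the 30 were called, against 8.2% of all genes called lower, and calls over all genes split into 1669 higher and 1484 lower, against 443 and 1977 with TMM. Over all kept spots all 30 were called lower, against 15.2% of all genes. Without wild type 2 and with no genotype term, when knockout 2 alone stood for litter 2 and was assumed to vary like litter 4, 15 of the 30 were called, against 3.77% of all genes called lower, and Hnf4a and Cebpa were among those that were not.

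Other measures moved with the litter. Median depth per liver spot was 8880 and 5193 UMIs in litter 2 and 69277.5 and 30803.5 UMIs in litter 4 (wild type before knockout). Of the lists, 27 of 30 other plasma proteins, 13 of 20 liver metabolic enzymes, 10 of 10 C1q+ macrophage genes and 9 of 9 neutrophil precursor genes were called lower in litter 4. The summed share of UMIs was 0.133 to 0.138% in litter 2 and 0.0497 to 0.0630% in litter 4 for the macrophage list, and 0.272 to 0.387% against 0.0453 to 0.0491% for the neutrophil list. The megakaryocyte list took 0.0487 to 0.05001% in litter 2 and 0.0884 to 0.0979% in litter 4, the other way. Of 12 erythroid and 7 megakaryocyte genes none was called, with medians of −0.88 and 0.23. Of 14 other liver regulators 7 were lower and 1 was higher. Litter, depth and tissue on the slide cannot be told apart in these sections.

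The 4 genes with the largest litter difference, Cps1, Apoh, Ahsg and Itih4, also had the largest stage difference. In liver spots, the stage difference and the mean litter difference of the 30 genes, which share no section, had a Spearman's rho of −0.88 and a Pearson's r of −0.90 across the 30 genes, and without Cps1 −0.86 and −0.87. Across 10793 genes of all kinds the same measures were −0.37 and −0.51. The stage difference and the knockout difference of litter 2 had a rho of −0.64 and an r of −0.72 across the 30 genes (−0.10 and −0.27 across all genes), and that of litter 4 had a rho of 0.07. These are descriptions across genes of the same sections, and genes are not independent replicates.

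**Figure D5:**
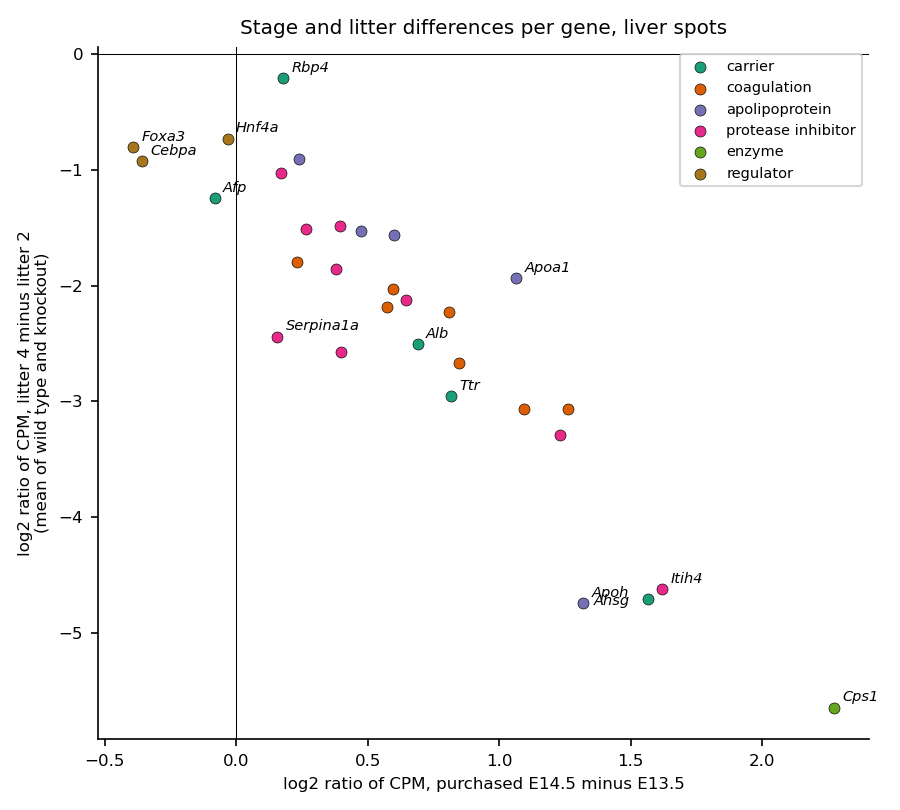
Each of the 30 genes by its log2 difference between E14.5 and E13.5 in the purchased livers (horizontal) and its mean log2 difference between litter 4 and litter 2 (vertical), both from CPM in liver spots, coloured by role. Cps1, Itih4, Ahsg and Apoh lie at the lower right, and Rbp4 and the transcription factors at the upper left.

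Against the spleens of the cross, 29 of the 30 genes were called higher in fetal liver over all kept spots (edgeR, genotype as a term, 8 sections, adjusted p below 0.05), against 25.6% of all 19087 genes. As the set was listed as hepatocyte genes, this checks the label. Alb was higher by 12.97 ± 1.77 (SE, log2, adjusted p = 0.000357 by edgeR) and Rbp4 by 12.01 ± 1.07 (adjusted p = 3.38e-05 by edgeR). Fga had 0 counts in all 4 spleens, so its liver level was at least 139-fold higher, taken from wild type 4, the lowest liver, over all kept spots against a floor of 3 counts in the shallowest spleen. Cebpa was not called (1.51 ± 0.57 SE, adjusted p = 0.0516 by edgeR), with 38.8 to 47.1 CPM in the spleens and 29.8 to 109.6 CPM over all kept spots of the livers. In liver spots, where its lowest value was 49.8 CPM, it did not overlap the spleens. Among the 30, the livers and spleens overlapped over all kept spots in Cebpa, Cps1, Itih1 and Itih4, and in liver spots in Cps1 alone. Overlap was not counted for genes outside the 30, so these names have no share to be set against. Cebpa is also a factor of granulocytes, and reached 29.2 to 80.7 CPM in the 3 marrows, the highest from 3 counts in the EDTA marrow. Cps1 counted 4.38 to 11.1 CPM in the spleens, above its 2.88 CPM in wild type 4 over all kept spots, and its call over spleen was lost without any of wild-type spleen 1 or 2, knockout spleen 2, wild type 2 or knockout 2 (adjusted p = 0.0506 to 0.233 by edgeR). With DESeq2 (29.6% of all genes called higher), or without wild type 4 or knockout 4, Cebpa was called higher in liver, and Itih4 lost its call without wild type 2 or knockout 2 (adjusted p = 0.0527 and 0.0536 by edgeR). The median of the 30 genes was 0.182 CPM in the P8 marrow and 0.237 CPM in the 89-week marrow, with Rbp4 at 30.4 CPM and Foxa3 at 6.01 CPM at P8.

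Within a section, the genes were compared between spots after each spot was thinned to 2000 UMIs, with no test, which left out 9 liver spots of wild type 2 and 16 of knockout 2 with fewer UMIs. The sum of the 30 genes varied by 24.7 to 31.0% of its mean between liver spots beyond counting error (relative SD, 6 sections). It was patterned in space, with a Moran's I between adjacent liver spots, which is near 0 without a pattern and near 1 where adjacent spots are alike, of 0.51 at E13.5, 0.63 at E14.5, 0.64 and 0.62 in wild type and knockout 2, and 0.30 and 0.24 in wild type and knockout 4. Moran's I was not corrected for counting error. The sum averaged 48.2 UMIs per thinned liver spot at E13.5 and 71.9 at E14.5. It averaged 241 and 124 in wild type and knockout 2, and 38.6 and 36.4 in wild type and knockout 4. The part of these counts in Moran's I was not tested. The middle 90% of liver spots held 7.48 to 16.8% of UMIs from the 30 genes in wild type 2 and 2.26 to 5.35% in the E14.5 purchased liver.

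Alb followed the sum of the other genes with a Spearman's rho of 0.46 to 0.81 over the 6 sections. Afp (0.36 to 0.56), Apoa1 (0.34 to 0.65) and Ttr (0.25 to 0.59) followed it as well. Ahsg followed it with a rho of 0.77 in wild type 2, where it averaged 17.6 UMIs per thinned spot, and with 0.18 in knockout 4, where it averaged 0.41. The transcription factors showed little relation, with Hnf4a between −0.02 and 0.14, at 0.10 to 0.27 UMIs per thinned spot. At such counts a low rho says little. Rbp4, with 1.54 to 3.36 UMIs per thinned spot, had a rho of 0.12 to 0.30. Of the pairs counted at 1 UMI or more in each section, Alb with Apoa1 (0.29 to 0.63), Alb with Ttr (0.28 to 0.54) and Alb with Afp (0.27 to 0.51) had the highest minimum, and Rbp4 with Apoa2 (0.01 to 0.30) the lowest.

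Among 181 genes outside the set with enough counts, Trf, which encodes transferrin, the iron carrier of plasma, was most like the summed 30 genes across kept spots, with a rho of 0.50 to 0.84 (0.42 to 0.81 in liver spots). Selenop, a selenium carrier (0.14 to 0.46), and Apoe, a lipoprotein component (0.12 to 0.51), followed. The others of the first 10 were Hba-a2, Slc4a1, Prdx2, Alas2, Car2, Dbi and Hist1h4f, several of them erythroid. Their rho in liver spots alone reached 0.24 at most and fell below 0 in one section or more, except for Alas2 (0.01 to 0.24). In liver spots the sum of other plasma protein genes went with the 30 in every section (0.29 to 0.37). Other liver regulators showed little relation (−0.07 to 0.10), at 0.35 to 0.73 UMIs per thinned spot. The erythroid list ran from −0.07 in wild type 2 to 0.21 in wild type 4 and knockout 4. Genes of stellate cells and mesenchyme went against the 30 in litter 4 (−0.20 in wild type and −0.36 in knockout) and in wild type 2 (−0.23). Elsewhere they were at −0.02 at E13.5, 0.003 at E14.5 and −0.06 in knockout 2. Neutrophil precursor genes went with the 30 in wild type 2 (0.29), knockout 2 (0.29) and knockout 4 (0.21). They were at 0.004 at E13.5, 0.09 at E14.5 and 0.08 in wild type 4. Megakaryocyte genes went with the 30 in litter 2 (0.25 in wild type and 0.24 in knockout) but against them in wild type 4 (−0.22). They were at −0.14 at E13.5, −0.002 at E14.5 and 0.01 in knockout 4. C1q+ macrophage genes ran from −0.01 to 0.11 and liver metabolic enzymes from 0.09 to 0.30 over the fetal liver sections.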

How the data were processed

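UMI counts per gene and spot, as deposited by the authors, came from Visium probe libraries of 14 sections and were not normalized. The submitters' processing notes name Space Ranger and mm10. Headers of the counts name Cell Ranger 4 for the purchased E13.5 and E14.5 livers, the P8 marrow and the purchased adult spleen. They name Space Ranger 2.1.1 for the 89-week marrow, 3.1.2 for the EDTA marrow and 4.0.1 for the cross sections. Barcode, feature and position tables, deposited as other values, gave spot names, symbols and in-tissue marks. Spots under tissue that detected 1000 genes or more were summed per section and scaled to counts per section total (CPM). Depth was 37167 to 56182915 UMIs per section, and intervals cover counting error only. The 30 genes, the gene lists and the tests were chosen with earlier results of these data known. The genes named are the 30, examples from the lists, C1qa and the 10 other genes most like the sum by minimum rho.

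Counts were tested with edgeR 4.0.16 (TMM, filterByExpr, glmQLFit and glmQLFTest, Benjamini-Hochberg adjusted p under 0.05) and, as an alternative, DESeq2 1.42.0, in R 4.3.3. The SE of an edgeR value was derived as the absolute log2 difference over the square root of its F statistic. The pipeline was tested on simulated data. The study's figure legends state that same-numbered fetal livers are littermates, so the litter number was used as a block. Over all kept spots, deviations of same-numbered sections from their genotype mean correlated with r = 0.697 over 19271 genes. With 2 sections per genotype, this value cannot tell litter from depth or from the share of liver on the slide. The numbers of the spleens pair nothing. Liver spots were planned by other plasma proteins (at least 0.5% of UMIs), which left too few spots, and were redefined after seeing the data by erythroid genes (at least 2%). Stage differences used a minimum of 10 counts in either section. Spots were thinned in Python 3.11.15. Replicate sections were no duplicates of each other (chi-square per degree of freedom of at least 21.8). Whether each section is a separate embryo is taken from the labels, and p-values measure only the spread between these sections.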

Additional observations from a re-analysis of the deposited data

Results flagged for a closer look

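Over all kept spots, the difference between knockout and wild type had opposite signs in the 2 litters, with 1 pair of littermates each. There, 30 of the 30 genes were lower in knockout 2 and higher in knockout 4, on the CPM scale and with TMM scaling alike. In liver spots this held for 17 genes on the CPM scale and for 3 genes with TMM scaling. With TMM in liver spots, 27 genes were lower in the knockouts of both litters. Whether the genotype difference itself differed between litters was not tested. Wild type 4 had 26.8% liver spots and knockout 4 had 61.5%. The part of that share in the sign was not tested.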

How the results depend on the processing

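The planned liver spots (at least 0.5% other plasma proteins) could not be used for genotype or stage, because they left 0 spots in wild type 4, knockout 4 and the E13.5 liver. The genotype count of genes called moved from 0 to 7 with DESeq2, 157 with the replicate block, 1 in liver spots by erythroid genes, 24 there with the replicate block, 1 in liver spots by 0.1% other plasma proteins and 22 there with the block. Leaving out 1 section gave 0 to 109 genes and 0 to 3 of the 30 genes, and the replicate block called 1 of the 30. With 1 section left out the median over the 30 ran from −3.08 to 2.72, Cps1 from −6.58 to 3.89, Alb from −3.90 to 2.80, Afp from −2.12 to 2.21, Rbp4 from −1.16 to 1.44 and Hnf4a from −1.69 to 1.49. Rbp4 was at 0.042 with the replicate block, whose pairing by litter changed no call among the 30 other than that of Cps1. Upper-quartile scaling, no filter and all in-tissue spots called 0 genes each.

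Tissue differences called 5744 to 12412 genes with 1 section left out. The litter comparison, whose alternatives were all chosen after seeing the data, called 4345 genes over all kept spots, and 796 to 7973 genes and 15 to 30 of the 30 genes with 1 section left out and no genotype term. The median stage difference was 0.69 with TMM, and 8 genes were past 2-fold with TMM, with thinned counts and in both kinds of liver spots (the other 2 alternatives could not change the values). The median rho of the 30 genes with their sum was 0.30 over kept spots, 0.17 in liver spots and 0.68 without thinning. Depth limits Cps1, Itih4 and the transcription factors in single spots.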
